A study of Rattus norvegicus with 17 samples.

Results

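Gene expression in fetal rat testes exposed to the highest dose of dipentyl phthalate (DPeP), 300 mg/kg/d, was compared with that in testes exposed to 1 or 11 mg/kg/d, both low doses being taken as 1 group. DPeP is a phthalate diester, of the chemical class used as plasticizers. The comparison used 11 of the 17 libraries of the study, chosen by the dose in their titles: 5 at 300 mg/kg/d and 6 at the low doses, 3 at 1 and 3 at 11 mg/kg/d. No corn oil (vehicle) library and no library at 100 mg/kg/d entered the filter, the normalization or the fit of the main analysis. They entered an alternative analysis with all 17 libraries in the fit. Apart from that, the 3 vehicle libraries appear only as levels. All animals were wild type Sprague Dawley rats, and the low-dose animals were exposed to DPeP as well, so the comparison shows what separated the top dose from low exposure and not from no exposure. Dams were dosed by oral gavage in corn oil, at 2.5 mL/kg, from gestational day 17 to gestational day 21, when the fetal testes were collected. Each library held polyA RNA of 1 testis or of a pool of 2 from 1 litter. The labels do not tie libraries to dams, so p-values measure the spread between these libraries, which may be partly technical.

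Testosterone in the fetal testis is made by Leydig cells, which lie between the cords. They take up or synthesize cholesterol, move it into mitochondria and convert it to androgen through a chain of enzymes, and they also secrete the peptide INSL3, which drives the first phase of testis descent. Sertoli cells form the cords around the germ cells and secrete anti-Müllerian hormone. Phthalate diesters with side chains of intermediate length are known in the rat for lowering fetal androgen synthesis when given in this window of gestation.

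The 11 libraries held between 14282274 and 18755376 gene counts. Markers of the main cell types of a testis were present: in the low-dose libraries Amh of Sertoli cells stood at 2016 TPM (counts per length of gene, scaled to a common total), Cyp17a1 of Leydig cells at 1109 TPM, and the germ cell gene Ddx4 at 53.2 ± 13.2 CPM (SD, n = 6). CPM are counts scaled to a common library total, on a scale normalized over the 11 libraries, and all levels below are in CPM unless TPM is stated. Ribosomal protein genes took 5.11% to 5.48% of counts at 300 mg/kg/d and 4.29% to 5.04% at the low doses, so the groups did not overlap (exact permutation test over 462 splits, two-sided p = 0.00433, the smallest the design allows). Vehicle libraries spanned 4.61% to 5.47%. The share of mitochondrial genes was 5.40% ± 0.268 (SD, n = 5) and 5.04% ± 0.393 (SD, n = 6), with an exact permutation p of 0.117. In the first principal component of log2 CPM, which held 22.8% of the variance, the 300 mg/kg/d libraries scored 11.3 to 25.6 and the low-dose libraries -26.6 to -1.15.

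**Figure D1:**
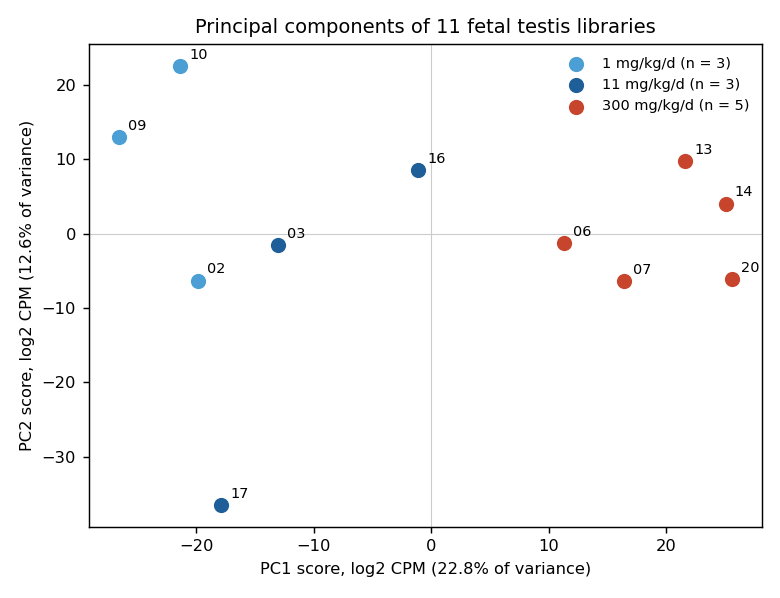
Scores of the 11 libraries on the first (x axis) and second (y axis) principal component of log2 CPM, 1 point per library, coloured by dose and marked with its replicate number. The 5 libraries at 300 mg/kg/d lie at 11.3 or above on the x axis and the 6 low-dose libraries at -1.15 or below; replicate 17 at 11 mg/kg/d lies lowest on the y axis.

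At the top dose most of the tested Leydig cell markers and genes of androgen synthesis were called lower, as were smaller parts of the lists for cholesterol synthesis, cell cycle and fibroblasts, while 11 of 21 Sertoli cell markers and single genes of other tissues were called higher. Of 17028 genes tested, 1063 were called at an adjusted p under 0.05 (6.24%) by edgeR's quasi-likelihood test with Benjamini-Hochberg adjustment over all genes tested. Of these, 589 fell (3.46%) and 474 rose (2.78%). Most changes were modest: 669 of the called genes differed by less than 1.5-fold, and the median fold was 1.33 among falls and 1.44 among rises. By at least 2-fold 86 genes were lower and 68 higher, and by at least 4-fold 18 were lower and 0 higher. These counts moved when 1 library was left out, which also leaves fewer libraries to test. Without replicate 20 at the top dose 686 genes were called, 364 of them lower. Without replicates 07 and 14 in turn 384 and 388 were lower. Without replicate 06 at the top dose 1050 genes were called, and without replicate 16 at 11 mg/kg/d 1273. In 667 of the called genes the 5 top-dose and the 6 low-dose libraries did not overlap; over all genes tested this held for 849 (4.99%). In bulk RNA of whole testes, fewer cells of a type and less RNA per cell cannot be told apart. The 26 gene lists used below were chosen with earlier results of these data known, so counts of their members are descriptions.

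Of 14 tested genes of androgen synthesis, 8 fell, 1 at the end of the chain rose and 5 were not called, and the median log2 fold change was -0.51, against 0.0 over all genes tested. Of the 8 falls, 6 were called in each of 18 alternative analyses. Summed over the list, the levels were 1500 to 2140 CPM at 300 mg/kg/d, 2930 to 4890 at the low doses and 4400 to 5520 in vehicle.

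Star moves cholesterol into the mitochondrion, the step that limits the rate of steroid synthesis. It stood at 166, 178, 115, 191 and 97.3 CPM in replicates 06, 07, 13, 14 and 20 at 300 mg/kg/d. In the 6 low-dose libraries it lay between 349 and 572 CPM with a median of 394, and in vehicle between 555 and 699. The groups were well apart, the highest top-dose library lying under every low-dose library. Its log2 fold change was -1.49 (SE 0.159, adjusted p = 2.32e-05). Against each low dose alone it was -1.54 (1 mg/kg/d) and -1.44 (11 mg/kg/d), values that share the top-dose libraries.

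Cyp11a1 cuts the side chain of cholesterol and makes pregnenolone. Its values were 306, 306, 291, 293 and 218 CPM at the top dose, against 608 to 1091 with a median of 821 at the low doses. No library of either group crossed into the other's range, and the top-dose libraries agreed closely apart from replicate 20, the lowest. The log2 fold change was -1.54 (SE 0.136, adjusted p = 3.94e-06). Fdx1 and Fdxr, which bring electrons to this enzyme, fell by 1.27 (SE 0.148) and 0.66 (SE 0.083). Here and below, amounts by which a gene rose or fell are log2 fold changes.

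Cyp17a1 converts progestogens to androgens. It was at 419, 412, 284, 395 and 238 CPM at 300 mg/kg/d and at 706 to 1279, median 823, at the low doses, again with no overlap, and its log2 fold change was -1.34 (SE 0.159, adjusted p = 5.93e-05). Per length of gene, Cyp11a1 went from 1023 to 345 TPM, Cyp17a1 from 1109 to 431 TPM and Star from 302 to 106 TPM. Por, the reductase that serves Cyp17a1, fell by 0.42 (SE 0.075, adjusted p = 0.00197).

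Hsd3b1, the step between them, changed less. Its 5 top-dose values ran from 540 to 795 CPM and its 6 low-dose values from 683 to 1250, median 1065. Here the groups overlapped, through replicate 17 at 11 mg/kg/d, which stood at 683 CPM below its 5 fellows. The log2 fold change was -0.60 (SE 0.126, adjusted p = 0.00810), and the call was lost with all 17 libraries in the fit (adjusted p = 0.0883).

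The last enzyme of the chain went the other way. Hsd17b3, which makes testosterone from androstenedione, stood at 116, 104, 132, 109 and 104 CPM at the top dose and at 66.2 to 91.2, median 85.8, at the low doses. All top-dose libraries were higher, but the vehicle libraries reached 108 CPM and so overlapped them. It rose by 0.46 (SE 0.083, adjusted p = 0.00257), and with all 17 libraries in the fit the adjusted p was 0.0506.

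**Figure D2:**
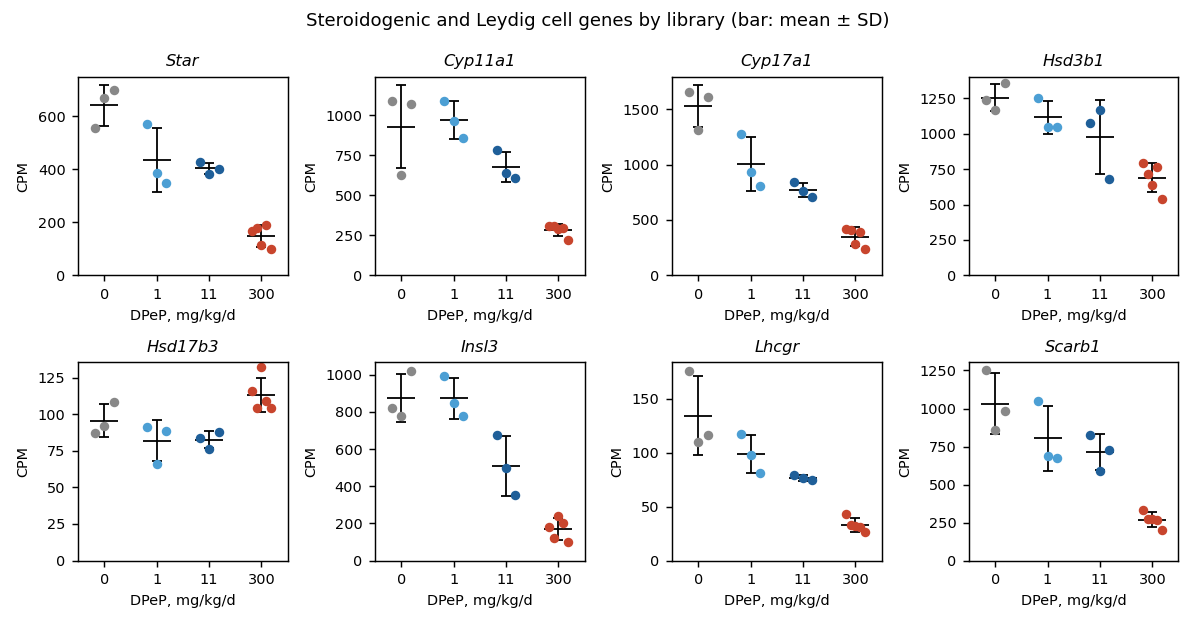
CPM (y axes, from 0) by dose of DPeP (x axes, 0 for vehicle) of 8 genes of steroid synthesis and Leydig cells, 1 point per library, with mean and SD as bars (n = 3, 3, 3 and 5). In 6 panels (Star, Cyp11a1, Cyp17a1, Insl3, Lhcgr and Scarb1) all libraries at 300 mg/kg/d lie below all low-dose libraries, in Hsd3b1 they overlap, and in Hsd17b3 they lie above; vehicle points are shown as levels and were not tested.

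Among 22 Leydig cell markers, a list that shares 4 of the genes above, 15 fell and 1 rose, with a median log2 fold change of -0.78, and 14 of the 15 falls were called in each alternative. Their summed level was 3500 to 4530 CPM at the top dose and 6550 to 9390 at the low doses. Insl3 had 180, 122, 242, 204 and 99.1 CPM at 300 mg/kg/d. At 1 mg/kg/d it had 993, 847 and 778 CPM and at 11 mg/kg/d 676, 499 and 355. The groups did not overlap, and the 11 mg/kg/d libraries all lay between those at 1 and at 300 mg/kg/d. The log2 fold change was -2.03 (SE 0.249, adjusted p = 8.28e-05); between 11 and 1 mg/kg/d it was -0.78 (SE 0.262, adjusted p = 0.579), which was not called. Exons of Insl3 overlap those of Jak3 and of AABR07024869.1 in the gene models, so its counts are uncertain by that much.

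Lhcgr is the receptor through which luteinizing hormone drives Leydig cells. It stood at 42.9, 32.5, 32.2, 30.8 and 26.5 CPM, below the low-dose range of 74.4 to 117 CPM in every library, and fell by 1.41 (SE 0.128, adjusted p = 4.89e-06). Scarb1, the receptor for high density lipoprotein, fell by 1.49 (SE 0.136), with 758 ± 161 CPM (SD, n = 6) at the low doses and 270 ± 47.6 CPM (SD, n = 5) at the top dose. Nr0b1, a nuclear receptor that represses steroid genes, fell too, by 0.70 (SE 0.093). Inha, the inhibin alpha subunit made by both Leydig and Sertoli cells, fell by 0.90 (SE 0.137). The exception was Ptgds, a prostaglandin synthase that is also in the Sertoli cell list; it rose by 1.11 (SE 0.159), from 4.36 to 6.62 CPM at the low doses to 7.91 to 15.7 at the top dose. The transcription factor Nr5a1, which switches on many of these genes, was at 190 CPM against 222 CPM and was not called (log2 fold change -0.23, adjusted p = 0.127), though it was without replicate 13 at the top dose (adjusted p = 0.0153).

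Genes counted as adrenal in type are also expressed at low levels by rat fetal Leydig cells. Cyp11b1, which makes corticosterone, was at 1.16, 0.853, 0.178, 0.463 and 0.285 CPM against 6.13 to 16.0 CPM, and fell by 3.86 (SE 0.364, adjusted p = 5.77e-06). Mrap, the accessory protein of the adrenocorticotropin receptor, fell by 2.81 (SE 0.294), from 5.77 to 16.0 CPM to 0.970 to 1.93 CPM. Akr1b7, an aldose reductase of the adrenal cortex, rose instead, by 0.96 (SE 0.175, adjusted p = 0.00256). The defining adrenal genes Mc2r and Cyp21a1 were near 0 in both groups: they had 13 and 6 counts over all 5 top-dose libraries and 11 and 7 counts over the 6 low-dose libraries.

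Svs5, which encodes a seminal vesicle secretory protein, was also among the steep falls. It was at 20.0, 12.4, 3.73, 11.2 and 5.08 CPM, at 152, 79.7 and 102 CPM in the libraries at 1 mg/kg/d, at 86.0, 45.0 and 46.5 CPM in those at 11 mg/kg/d, and at 129 to 271 CPM in vehicle. No library of the top dose came near the low-dose range. Its log2 fold change was -3.02 (SE 0.373, adjusted p = 8.37e-05).

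To show the start of genes that changed, the 250 bases before the gene start were read for 4 of them from RefSeq (build GRCr8, a newer build than the mRatBN7.2 of the counts), 5′ to 3′ along the gene. The falls are the Leydig cell marker Insl3 (chr16:18432939-18433188, plus strand) and Svs5 (chr3:173415271-173415520, plus strand), which is in none of the lists. The rises, both Sertoli cell markers described further on, are Amh (chr7:9559868-9560117, minus strand) and Fgf9 (chr15:36327108-36327357, plus strand). Capitals mark a match, on either strand, to AAGGTCA, letters of the half-site bound by NR5A1, or to TGACGTC, 7 letters of the cyclic AMP response element, whose palindrome can match on both strands.
Insl3: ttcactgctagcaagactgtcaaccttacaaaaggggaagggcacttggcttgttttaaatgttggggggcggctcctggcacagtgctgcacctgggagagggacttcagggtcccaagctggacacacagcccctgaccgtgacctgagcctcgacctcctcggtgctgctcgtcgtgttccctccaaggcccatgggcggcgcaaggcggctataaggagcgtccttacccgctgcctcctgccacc
Svs5: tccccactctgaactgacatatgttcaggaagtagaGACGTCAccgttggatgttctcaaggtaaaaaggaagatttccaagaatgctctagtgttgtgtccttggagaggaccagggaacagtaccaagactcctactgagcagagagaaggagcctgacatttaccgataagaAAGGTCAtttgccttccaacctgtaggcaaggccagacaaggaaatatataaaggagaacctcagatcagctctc
Amh: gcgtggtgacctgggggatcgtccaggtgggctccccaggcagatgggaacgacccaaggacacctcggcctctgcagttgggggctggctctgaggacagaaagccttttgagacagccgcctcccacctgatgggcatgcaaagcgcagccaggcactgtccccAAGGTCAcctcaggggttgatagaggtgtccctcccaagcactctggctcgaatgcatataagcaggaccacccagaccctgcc
Fgf9: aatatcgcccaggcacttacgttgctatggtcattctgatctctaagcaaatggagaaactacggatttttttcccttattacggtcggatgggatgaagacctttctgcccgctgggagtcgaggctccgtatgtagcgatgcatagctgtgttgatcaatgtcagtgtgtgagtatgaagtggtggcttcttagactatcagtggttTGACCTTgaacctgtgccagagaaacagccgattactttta

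The letters AAGGTCA begin 75 bases before the start of Svs5, 84 before that of Amh and, on the other strand, 41 before that of Fgf9; TGACGTC lies on the other strand 214 before that of Svs5. Insl3 holds neither. The 4 genes shown are a choice from the named genes, so their matches give no rate and no split between falls and rises. Among other named genes Akr1b7, which rose, held AAGGTCA, and Cyp11a1, Lhcgr and Hsd3b1, which fell, held no match. In windows of 300 bases (250 before to 50 after the start), AAGGTCA was in 3.0% of the 10789 tested genes with a promoter in the table, in 12 of 416 genes that fell (2.88%) and in 10 of 290 that rose (3.45%). Among the 12 fallen androgen synthesis and Leydig genes with a promoter there, 0 held it. Over all 33469 promoters of the table the share was 4.61%. TGACGTC was in 5.1% of tested genes, 5.05% of the falls and 3.79% of the rises. These shares are descriptions of letters and say nothing of binding.

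Of 23 tested genes of cholesterol synthesis, 7 fell, 1 rose and 15 were not called; 21 had lower values, and the median log2 fold change was -0.27. The list's summed level was 1510 to 1830 CPM at the top dose, 1770 to 2260 at the low doses and 2150 to 2450 in vehicle. Tm7sf2, a sterol reductase, fell by 0.79 (SE 0.177, adjusted p = 0.0127), from 6.55 to 10.4 CPM to 3.08 to 6.27 CPM, and was the 1 member whose fall was called in each alternative. Hmgcs1, which makes the precursor of mevalonate, fell by 0.41 (SE 0.099), with a call lost without replicate 14 at the top dose (adjusted p = 0.0628) and with all 17 libraries in the fit (adjusted p = 0.0748). CACCCCA, letters of the sterol regulatory element, was in the promoter window of 2 of the 6 fallen cholesterol synthesis genes found in the table. In Acat2 the letters begin 185 bases before the start, and in Tm7sf2 25 bases after it, on the other strand. Among tested genes the share was 6.88%, among all falls 7.21% and among all rises 6.9%. Whether 2 of 6 genes differ from these shares was not tested.

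In cholesterol uptake and transport 4 of 19 genes fell, 1 rose and 14 were not called, with a median of -0.09. Beside Scarb1 they included Plin2, a coat protein of lipid droplets, which fell by 0.39 (SE 0.059, adjusted p = 0.000594). Abcg1, which exports cholesterol from cells, rose by 0.63 (SE 0.111), with 62.9 to 100.0 CPM at the top dose above 44.8 to 58.7 at the low doses. Fatty acid synthesis had 3 of 13 genes lower and none higher, led by Acss2, which makes acetyl-CoA from acetate and whose exons overlap Gss, at -0.87 (SE 0.123). Of 23 PPAR targets and fatty acid oxidation genes, 5 fell and 0 rose. Angptl4, a PPAR-regulated inhibitor of lipoprotein lipase, was the 1 called in each alternative, and fell by 0.55 (SE 0.096); the median of that list was -0.19.

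Genes that protect against oxidants fell in part. Of 20, 4 fell and 0 rose, each called in every alternative; the median over the list was -0.08. Sod2, the superoxide dismutase of mitochondria, was at 68.5, 66.0, 62.8, 62.6 and 55.6 CPM, all below the low-dose range of 79.3 to 101 CPM, and fell by 0.53 (SE 0.074, adjusted p = 0.000321). Prdx3, the peroxiredoxin of mitochondria, fell by 0.51 (SE 0.083).

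Glutathione transferases held the largest of the falls ranked here (genes with a symbol, a mean of at least 1 CPM and no overlap). Gsta2 had 14 counts over all 5 top-dose libraries, with 0 in 2 of them, against 1013 counts over the 6 low-dose libraries, a ratio of mean CPM of 66.7. Its log2 fold change was -5.98 (SE 0.712, adjusted p = 6.09e-05), a fitted value that depends on how counts near 0 are treated. Gsta1 fell by 0.99 (SE 0.146), from 193 to 401 CPM to 124 to 158 CPM. The alpha class genes resemble each other in sequence, so reads may be split among them. Of 16 genes of this family 3 fell and 1 rose, and the median was -0.01.

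Slc7a8, an exchanger of neutral amino acids, was among the largest and most certain falls. It stood at 16.2, 18.5, 17.7, 25.3 and 16.3 CPM at 300 mg/kg/d, at 112, 113 and 113 CPM at 1 mg/kg/d, and at 68.4, 61.0 and 70.6 CPM at 11 mg/kg/d. The 3 doses thus formed 3 separate bands. The log2 fold change against both low doses was -2.25 (SE 0.180, adjusted p = 2.34e-06). Aldh1l1, a folate enzyme, shared the smallest adjusted p of the comparison (5.47e-07) with Lcn2 and fell by 1.45 (SE 0.1): its 5 values lay within 11.8 to 14.6 CPM and its 6 low-dose values within 30.2 to 43.6 CPM. Prlr, the prolactin receptor, fell by 2.11 (SE 0.244), with 16.6 ± 6.92 CPM (SD, n = 6) at the low doses and 3.83 ± 0.997 CPM (SD, n = 5) at the top dose. Other steep falls were of genes at low levels: Gpr55, a lipid-sensing receptor, had 13 counts over the top-dose libraries against 188, and Fcer2, a receptor for IgE, 16 against 167.

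Of 21 tested Sertoli cell markers, 11 rose, 1 fell and 9 were not called, with a median of 0.31; 13 had higher values, and 10 of the rises were called in each alternative. Their summed level was 4430 to 6820 CPM at the top dose and 3550 to 4160 at the low doses. On average Amh alone made up 2556 of 5210 CPM at the top dose and 1455 of 3740 CPM at the low doses. Amh was at 2020, 2040, 3830, 2950 and 1930 CPM at 300 mg/kg/d, against 1328 to 1773 with a median of 1422 at the low doses. Replicates 13 and 14 were the highest, and the other 3 lay just above the low-dose range. It rose by 0.81 (SE 0.148, adjusted p = 0.00256).

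Fgf9, a growth factor that supports Sertoli cell fate, rose from a low level, with 7.24, 11.9, 10.3, 8.16 and 10.0 CPM above a low-dose range of 2.70 to 4.37 CPM. Its log2 fold change was 1.42 (SE 0.168, adjusted p = 5.93e-05). Clu, the secreted chaperone clusterin, was at 128, 156, 158, 187 and 156 CPM against 76.1 to 112 CPM and rose by 0.79 (SE 0.109). Sox8, a transcription factor related to Sox9, rose by 0.55 (SE 0.093), and Ctsl, a lysosomal protease, by 0.59 (SE 0.066). Dhh, the hedgehog ligand that Sertoli cells send to Leydig cells, rose by 0.42 (SE 0.089, adjusted p = 0.00902), and was the 1 member called of 8 in the hedgehog list.

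Sox9, the factor that sets Sertoli cell identity, was at the edge. Its top-dose values of 54.9 to 77.3 CPM overlapped the low-dose values of 44.8 to 62.2, and the log2 fold change was 0.31 (SE 0.089, adjusted p = 0.0494). The call was lost in 12 of 18 alternatives, among them leaving out any of replicates 06, 07, 13 and 20 at the top dose, 02 and 09 at 1 mg/kg/d or 03 and 17 at 11 mg/kg/d, with adjusted p from 0.0643 to 0.126. Wt1, another regulator of these cells, was not called (log2 fold change 0.17, adjusted p = 0.197). The 1 fall was of Hsd17b1, an enzyme that reduces estrone, which stood at 3.37 CPM against 6.56 CPM and lost its call in 8 alternatives, among them without any of replicates 06, 13, 14 and 20 at the top dose or 02 and 10 at 1 mg/kg/d, with adjusted p from 0.0575 to 0.0998.

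**Figure D3:**
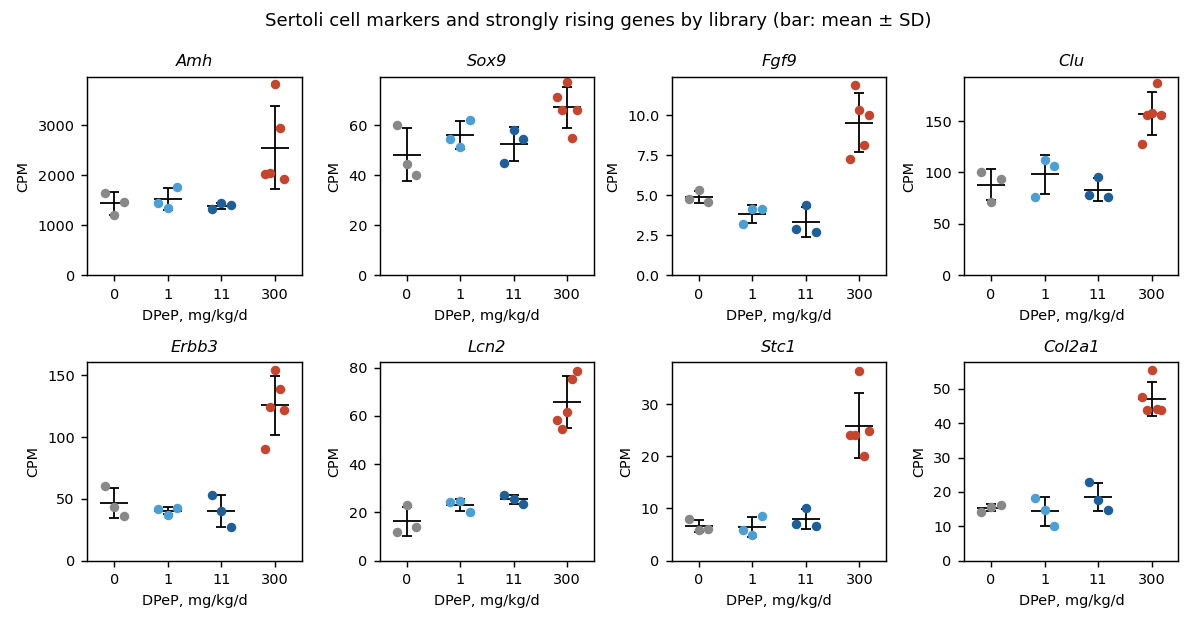
CPM (y axes, from 0) by dose of DPeP (x axes, 0 for vehicle) of 4 Sertoli cell markers and 4 other genes, 1 point per library, with mean and SD as bars (n = 3, 3, 3 and 5). In 7 of the 8 panels every library at 300 mg/kg/d lies above every low-dose library; in Sox9 the groups overlap.

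Germ cell genes had higher values with fewer stable calls. Of 29 tested, 9 rose and 0 fell, 27 had higher values, and the median was 0.37; 1 of the 9, Nanos2, was called in each alternative. Nanos2, an RNA-binding protein of male germ cell fate, was at 1.52, 2.90, 3.43, 4.68 and 2.45 CPM against 0.794 to 1.96 CPM. The groups overlapped through replicate 06, and the rise was 1.31 (SE 0.293, adjusted p = 0.0123). Ddx4, an RNA helicase of all germ cells, was not called (log2 fold change 0.22, adjusted p = 0.36); without replicate 16 at 11 mg/kg/d its adjusted p was 0.0470. Dazl, another RNA-binding protein, was not called either, at 0.41 (adjusted p = 0.0732), but was without replicate 16 (adjusted p = 0.0316) or 17 (adjusted p = 0.0459) at 11 mg/kg/d. Pou5f1, a pluripotency factor, had 0.49 (adjusted p = 0.0768), and was called without replicate 06 at the top dose (adjusted p = 0.0173).

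Of 25 cell cycle genes, 10 fell, 0 rose and 15 were not called; 23 had lower values, the median was -0.17, and 3 of the falls were called in each alternative. Ccnd2, a cyclin of the first growth phase, was at 482, 424, 328, 348 and 420 CPM against 540 to 789 CPM, with no overlap, and fell by 0.70 (SE 0.103, adjusted p = 0.000410). Mcm5, of the replication helicase, fell by 0.28 (SE 0.054) and Aurka, a mitotic kinase whose exons overlap Fam210b, by 0.30 (SE 0.067). Of 18 genes of the cell death list 1 rose and 1 fell, with a median of 0.02. Over all genes tested 2.78% rose and 3.46% fell, so calls do not set this list apart. Pmaip1, which encodes the cell death factor Noxa, rose by 1.21 (SE 0.123, adjusted p = 1.44e-05), with 19.3 to 24.6 CPM above 7.11 to 11.0 CPM.

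Of 16 fibroblast genes 5 fell and 0 rose (median -0.23), among them Col3a1, a collagen of loose tissue, by 0.32 (SE 0.069); none of the 5 was called in every alternative. The lists of 12 peritubular myoid, 14 red blood cell and 9 steroid receptor genes had 0 calls by edgeR's test, where the medians were -0.02, 0.44 and -0.13. Red blood cell genes varied widely, summing to 6290 to 15100 CPM at the top dose and 2720 to 10300 at the low doses, and the part of blood in other results was not tested. In 12 endothelial genes 1 fell, the cadherin Cdh5, by 0.42 (SE 0.102), with a call lost in 5 alternatives: without replicate 07 (adjusted p = 0.0656) or 14 (adjusted p = 0.0651) at the top dose, with all 17 libraries in the fit (0.117), and with the sample code as a term, with and without replicate 10 at 1 mg/kg/d (0.0755 and 0.0764). In 15 macrophage genes 1 fell (Tyrobp, by 0.87, SE 0.153), and in 18 genes of the unfolded protein response 1 fell (Xbp1, whose call was lost with all 17 libraries in the fit, adjusted p = 0.186). With 1 call each, the endothelial, macrophage and unfolded protein lists are not set apart by calls from all genes tested, of which 3.46% were called lower. Lower values, called or not, were found in 11 of 12 endothelial and 11 of 15 macrophage genes (medians -0.2 and -0.1). In the unfolded protein list this held for 10 of 18 (median -0.01), and over all genes tested for 8490 of 17028. Whether these shares differ was not tested. Of 19 immediate early genes Nr4a1, an orphan nuclear receptor of steroid cells, was the 1 called. It rose by 0.92 (SE 0.101, adjusted p = 3.19e-05), with 27.2 to 37.8 CPM above 14.4 to 20.7. The median of that list was 0.01, and its 1 call does not set it apart either.

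Signals of the Nodal and activin family had 2 falls and 1 rise among 19 genes. Lefty2, an inhibitor of Nodal, fell by 2.31 (SE 0.437, adjusted p = 0.00350), with 0.405 to 0.913 CPM against 0.920 to 5.83 CPM; the edges of both ranges nearly met. Bmp7, a bone morphogenetic protein, rose by 0.68 (SE 0.124). Of 13 insulin-like growth factor genes 2 fell and 0 rose; Igfbp2, a binding protein, fell by 0.39 (SE 0.073). Of 13 progenitor and interstitial genes 3 fell and 0 rose, with a median of -0.24. Heyl among them, a target of Notch signals, fell by 0.48 (SE 0.067), with an adjusted p of 0.0553 when all 17 libraries were in the fit.

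**Figure D4:**
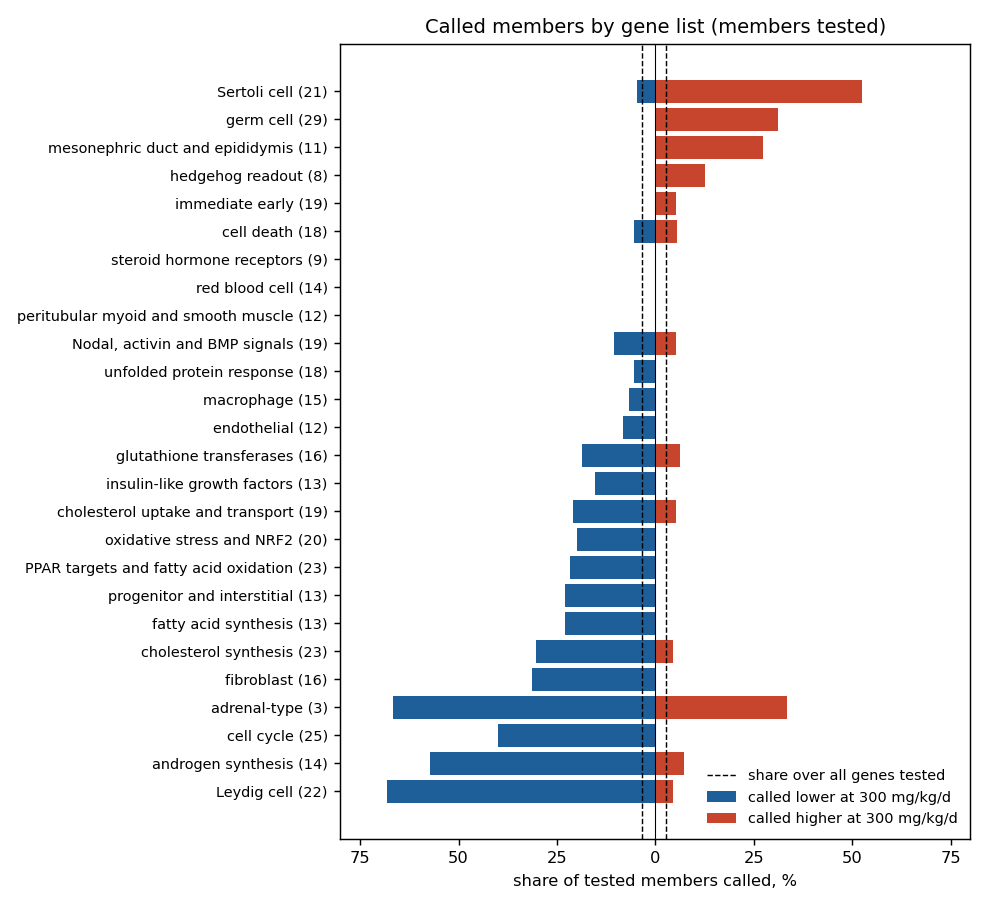
Share of tested members (x axis, %) called lower (to the left, blue) and higher (to the right, red) at 300 mg/kg/d in each of 26 gene lists, with the number of members tested in parentheses; dashed lines mark the shares over all 17028 genes, 3.46% lower and 2.78% higher. Leydig cell genes extend farthest to the left, followed by the 3 adrenal-type genes and androgen synthesis, and Sertoli cell genes farthest to the right.

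The largest rises were of genes better known from other tissues. Erbb3, a receptor for neuregulins, was at 90.1, 124, 154, 139 and 122 CPM at the top dose and at 27.3 to 53.2, median 40.9, at the low doses. All 5 libraries stood far above the low-dose and the vehicle range, the latter reaching 60.0 CPM. It rose by 1.64 (SE 0.139, adjusted p = 2.85e-06). Stc1, a secreted glycoprotein, was at 24.0, 24.0, 36.4, 20.0 and 24.9 CPM against 5.00 to 10.1 CPM and rose by 1.83 (SE 0.171, adjusted p = 5.22e-06). Ntn4, a netrin of basement membranes, rose by 1.76 (SE 0.192), with 36.9 ± 8.04 CPM (SD, n = 5) at the top dose and 11.0 ± 3.47 CPM (SD, n = 6) at the low doses.

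Lcn2, a secreted carrier of small lipids and siderophores in the mesonephric duct and epididymis list, rose by 1.44 (SE 0.1, adjusted p = 5.47e-07). It had 58.2, 54.4, 61.4, 75.2 and 78.7 CPM at the top dose, 20.0 to 27.0 at the low doses and 11.7 to 23.1 in vehicle. The top-dose libraries lay above all others. Of 11 genes of that list 3 rose, the others being the keratins Krt18, by 0.57 (SE 0.079), and Krt8, by 0.41 (SE 0.071), whose call was lost with all 17 libraries in the fit (adjusted p = 0.0784). The list's summed level was 502 to 592 CPM at the top dose, 367 to 528 at the low doses and 501 to 536 in vehicle; the part of attached duct tissue was not tested. Its marker Lhx1 had 44 and 40 counts over the 2 groups and Cdh16 28 and 32.

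Genes of Schwann cells, cartilage, striated muscle, peptide hormone processing and gap junctions recurred among the large changes. Lists of these were drawn up after the values of this comparison were seen, so their counts, too, carry no weight beyond description. Of 16 Schwann cell and neural crest genes, 5 rose and 1 fell. Sox10, their defining transcription factor, rose by 1.49 (SE 0.238), with 4.81, 7.17, 10.9, 6.48 and 5.88 CPM above 1.22 to 3.28 CPM. Ngfr, a neurotrophin receptor, fell by 0.63 (SE 0.102). S100b, a calcium-binding protein also typical of Schwann cells, was not called, at -0.18 (adjusted p = 0.388).

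Of the cartilage collagens, Col2a1, Col9a1, Col9a2 and Col9a3 rose by 1.52 (SE 0.143), 1.37 (SE 0.143), 1.15 (SE 0.184) and 1.25 (SE 0.103). Col2a1 was at 47.6, 43.9, 55.4, 44.0 and 43.8 CPM against 10.1 to 22.8 CPM, more than the spread of either group. With Sox6 they were the 5 called of 12 genes in the list, each called in every alternative. Acan, the core protein of cartilage matrix, was not called (0.31, adjusted p = 0.222).

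In striated muscle genes the signs were mixed. Myh6, the alpha heavy chain of cardiac myosin, fell by 1.54 (SE 0.128, adjusted p = 2.34e-06), from 346 to 588 CPM to 127, 163, 159, 177 and 121 CPM, and was lower than vehicle, at 257 to 330 CPM, as well. Myh7, the beta heavy chain, fell by 0.74 (SE 0.093). Mybpc3, a myosin-binding protein of the heart, rose 2.84-fold (adjusted p = 4.89e-06), with 59.8 to 109 CPM above 20.5 to 34.6 CPM, and so did Hrc, a calcium-binding protein of muscle, by 1.59 (SE 0.200). Of the 25 genes of the list 6 rose and 2 fell.

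Prohormone processing also divided, with 3 of 14 genes higher and 4 lower. Cpe and Pcsk1, the carboxypeptidase and the convertase that trim peptide hormones, rose by 1.36 (SE 0.120, adjusted p = 3.94e-06) and 1.90 (SE 0.300, adjusted p = 0.000866). Cpe had 29.3 to 37.6 CPM above 10.4 to 17.0, and Pcsk1 1.83 to 3.91 CPM above 0.336 to 1.48. Chga, a protein of secretory granules, fell by 2.01 (SE 0.206, adjusted p = 1.51e-05), from 12.2 to 30.1 CPM to 3.64 to 5.68 CPM. Of connexins, which form gap junctions, Gjb1 rose by 1.85 (SE 0.212), with 4.15 to 6.39 CPM above 0.837 to 1.85 CPM; of 10 such genes 2 rose and 1 fell.

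The low-dose group joined 2 doses that were not the same. On the first principal component the libraries at 1 mg/kg/d scored -26.56 to -19.85. Those at 11 mg/kg/d scored -17.89 to -1.15, nearer the top dose. Between 11 and 1 mg/kg/d, 6 of 17028 genes were called (0.0352%) by edgeR's quasi-likelihood test, and 1172 had an unadjusted p under 0.05. With 3 libraries at each low dose, few calls do not show that the doses were alike. Against 1 mg/kg/d alone the top dose had 1124 called genes (6.6%) and against 11 mg/kg/d alone 380 (2.23%); both counts share the 5 top-dose libraries, and whether they differ was not tested. Of the 6 genes, 5 were also called between the top dose and both low doses: Aebp1, Aox1, Gpc4, Gsta2 and Slc7a8. In each of these the libraries at 11 mg/kg/d lay between those at 1 and those at 300 mg/kg/d. These genes were picked by both calls in the same libraries, so this order is in part a result of the choice.

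Aebp1, a collagen-binding protein of connective tissue, was at 209, 210 and 217 CPM at 1 mg/kg/d, at 143, 140 and 146 CPM at 11 mg/kg/d and at 103 to 115 CPM at 300 mg/kg/d, with 173 to 199 CPM in vehicle. The 3 dose bands did not touch, and vehicle lay between both low doses. The log2 fold change of 11 against 1 mg/kg/d was -0.57 (SE 0.067, adjusted p = 0.00430), and that of 300 against 11 mg/kg/d -0.39 (adjusted p = 0.00145). Its adjusted p was 0.144 with all 17 libraries in the fit, and it stayed called without any 1 low-dose library.

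Aox1, an aldehyde oxidase, went from 30.8, 25.8 and 27.7 CPM at 1 mg/kg/d to 12.8, 15.9 and 11.7 CPM at 11 mg/kg/d and 4.02 to 6.25 CPM at 300 mg/kg/d. In vehicle it stood at 28.5, 13.8 and 23.5 CPM, so 1 vehicle library lay within the range at 11 mg/kg/d. The log2 fold change of Aox1 between the low doses was -1.06 (SE 0.163). Gpc4, a heparan sulfate proteoglycan of the cell surface, changed by -0.59 (SE 0.093), Slc7a8 by -0.76 (SE 0.125) and Gsta2 by -2.07 (SE 0.336). Gsta2 had 15.3, 22.5 and 14.8 CPM at 1 mg/kg/d, 3.62, 4.70 and 4.18 CPM at 11 mg/kg/d and at most 0.521 CPM at the top dose. In vehicle Gpc4 had 76.3 to 107 CPM, Slc7a8 82.5 to 123 CPM and Gsta2 10.7 to 25.9 CPM. These vehicle ranges took in every library at 1 mg/kg/d and none at 11 mg/kg/d. These calls were narrow: the adjusted p was 0.0372 for Aox1 and Gpc4 and 0.0446 for Slc7a8 and Gsta2, and the calls of Slc7a8 and Gsta2 were lost on leaving out any 1 of the 6 low-dose libraries, with adjusted p from 0.107 to 0.316. Aox1 lost its call without any but replicate 16 at 11 mg/kg/d, and Gpc4 without any but replicate 09 at 1 mg/kg/d, with adjusted p from 0.0616 to 0.133.

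Dusp27, an atypical phosphatase gene of striated muscle, was the 1 of the 6 that rose. It had 4.56, 3.94 and 6.38 CPM at 1 mg/kg/d, 15.1, 15.8 and 12.3 CPM at 11 mg/kg/d, 9.55 to 16.7 CPM at 300 mg/kg/d and 5.70 to 6.93 CPM in vehicle. The libraries at 11 and 300 mg/kg/d overlapped and both lay above those at 1 mg/kg/d and vehicle. Between the low doses it rose by 1.53 (SE 0.219, adjusted p = 0.0247). The call was lost without replicate 02 or 09 at 1 mg/kg/d or replicate 03 or 16 at 11 mg/kg/d, with adjusted p from 0.0717 to 0.122. Against the pooled low doses its log2 fold change of 0.36 was not called (SE 0.300, adjusted p = 0.554), but was in the fit of 3 groups (0.57, adjusted p = 0.0367).

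**Figure D5:**
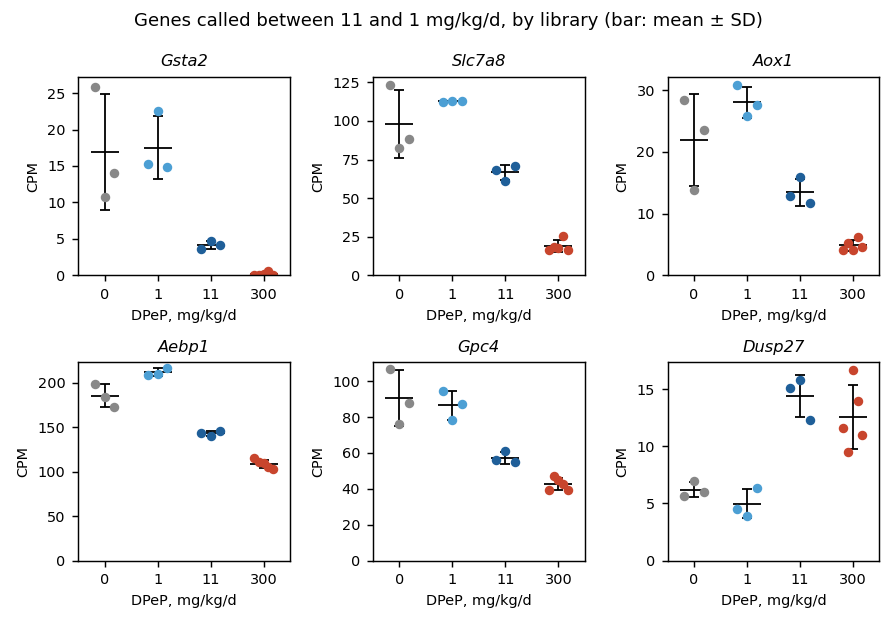
CPM (y axes, from 0) by dose of DPeP (x axes, 0 for vehicle) of the 6 genes called between 11 and 1 mg/kg/d, 1 point per library, with mean and SD as bars (n = 3, 3, 3 and 5). In 5 panels the libraries at 11 mg/kg/d lie between those at 1 and at 300 mg/kg/d; in Dusp27 the libraries at 11 and 300 mg/kg/d share 1 range above those at 1 mg/kg/d.

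The titles carry a sample code (S446, S447 or S448) whose meaning the labels do not give. Code S447 held 2 top-dose and 3 low-dose libraries, S448 held 3 and 2, and S446 held 1 low-dose library, replicate 10 at 1 mg/kg/d. Within S447 the log2 ratio of mean CPM was -1.47 for Star, -1.78 for Insl3, 1.11 for Amh and 1.82 for Erbb3. Within S448 the ratios were -1.66, -2.21, 0.68 and 1.52. In all 4 genes the top-dose and low-dose libraries did not overlap, so the direction within a code was fixed in advance. These ratios therefore cannot show whether the code had an effect. Their size was least even in Amh.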

How the data were processed

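RNA was sequenced from 17 libraries, 11 of which were compared. Per the submitters' processing notes, Trimmomatic 0.36, STAR 2.5.2b and featureCounts of Subread 1.5.2 were used with the build mRatBN7.2; limma and DESeq2 are named without a role. The deposited values used here are the authors' raw read counts per gene. No source used here gives the gene models' release or the strand setting, so genes with overlapping or antisense partners carry uncertain counts. The deposited table repeated rows (47125 rows for 30652 identifiers); each identifier was kept once and the 92 ERCC spike-in rows were dropped, leaving 30560 genes, 6516 of them without a symbol. The counts were equal to those in the 17 files per library.

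The 5 top-dose and 6 low-dose libraries were fitted with edgeR 4.0.16 in R 4.3.3 (TMM, filterByExpr, quasi-likelihood test, two-sided), which tested 17028 genes; a gene was called, and is said to rise or fall, at a Benjamini-Hochberg adjusted p under 0.05. The comparison of 11 with 1 mg/kg/d, and of 300 with each, came from a fit of 3 groups over the same genes. Vehicle libraries were scaled to the same reference library for display. CPM use TMM library sizes, log2 CPM a prior count of 2, and within-code ratios 0.1 CPM as pseudocount. TPM were computed from counts and the deposited exon lengths. Exons of a gene were checked against those of other genes by position.

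On simulated counts for this comparison over 17028 genes, the test recovered 76.1% of genes changed by 1.5-fold, 94% by 2-fold and 100% by 3-fold. Of its 189 calls 4.76% were false. The changed genes, 67, 67 and 66 of them, all had a low-dose mean of at least 1 CPM. Counts were drawn from a model of the kind the test assumes, with spread fitted to these data. The rates therefore need not hold for genes at lower levels or for the real counts.

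The doses, the 26 gene lists (460 entries, 425 tested) and the rule for named genes were chosen with earlier results of these data known. The rule names up to 5 called members per list, the 12 largest falls and 12 largest rises without overlap at a mean of at least 1 CPM, the 10 smallest p-values, the genes called between the low doses, and a panel of 11 genes; not all are described. The 5 lists on Schwann cells, cartilage, muscle, prohormones and gap junctions, and the genes Por, Hsd17b1, Nr0b1, Sox8, Ptgds, Nr5a1, Wt1, Dazl, Pou5f1, Sox10, Ngfr, S100b, Col9a1, Col9a2, Sox6, Acan, Myh7, Mybpc3 and Chga, were chosen after values were seen. Alternatives were RLE size factors, no filter, 3 groups, all 17 libraries, the sample code as a term, DESeq2 1.42.0 and leaving out each library.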

Additional observations from a re-analysis of the deposited data

Results flagged for a closer look

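A library stood apart from its fellows, by Dixon's criterion at 95%, in 10 of 180 groups of values checked; chance alone flags about 1 in 20. At the top dose these were Cyp11a1 in replicate 20, lowest at 218 CPM, Slc7a8 in replicate 14, highest at 25.3 CPM, and the share of ribosomal protein genes in replicate 20, lowest at 5.11%. Among the 6 low-dose libraries, replicate 02 at 1 mg/kg/d was highest in Star (572 CPM), Cyp11b1 (16.0 CPM) and Prlr (30.2 CPM). Replicate 10 at 1 mg/kg/d was highest in Amh (1770 CPM) and Tyrobp (34.5 CPM), replicate 03 at 11 mg/kg/d was highest in Col9a3 (38.4 CPM), and replicate 17 at 11 mg/kg/d was lowest in Hsd3b1 (683 CPM). Each of these genes, except Hsd3b1, kept its call in all 18 alternatives.

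The change from each low dose to 300 mg/kg/d differed between both low doses in 6 genes, since 11 and 1 mg/kg/d differed by the edgeR test in the fit of 3 groups. The log2 fold changes of 11 against 1 mg/kg/d were -0.57 for Aebp1, 1.53 for Dusp27, -1.06 for Aox1, -0.59 for Gpc4, -2.07 for Gsta2 and -0.76 for Slc7a8. In Dusp27 the top dose exceeded 1 mg/kg/d by 1.33 (adjusted p = 0.000834) and lay at -0.20 against 11 mg/kg/d (adjusted p = 0.729).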

How the results depend on the processing

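Of the 79 called genes named for 300 against both low doses, 69 kept their call in each of 18 alternatives. The other 10 lost it in at least 1, and 0 changed direction. All 158 values within a sample code had the same sign. For genes whose groups did not overlap, that sign was fixed in advance. The alternatives reuse the libraries by which these genes were called, so they show dependence on processing and give no independent support. The 1063 calls (474 higher, 589 lower) became 624 with all 17 libraries in the fit (303 lower), 633 with the sample code as a term (305 higher, 328 lower) and 635 with that term and without replicate 10 at 1 mg/kg/d (309 higher, 326 lower), the last an alternative chosen after seeing the data. DESeq2 called 1507. Leaving out 1 library gave 686 to 1273 calls, with 364 to 693 lower. The 6 calls between 11 and 1 mg/kg/d became 17 without the filter, 57 in DESeq2, 2 with the sample code, 1 with all 17 libraries and 1 to 3 without 1 library. Against 1 mg/kg/d alone the 1124 calls became 518 with all 17 libraries; against 11 mg/kg/d alone the 380 became 191, and 621 in DESeq2. The cause of these shifts was not tested. No paired analysis was possible because replicate numbers are not shared between the groups. Genes under a few CPM, such as Gsta2, Gpr55 and Fcer2 at the top dose, rest on few counts, which limits their fold changes.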
